A study of Mus musculus with 4 samples.

Results

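Keratinocytes (KCs), the main cells of the epidermis, also act as sentinels that talk to immune cells through secreted cytokines and chemokines. The RNA of 41 genes for cytokines, chemokines and their receptors known from KCs was read from a table of 25814 genes. The rule that picks them uses gene names and no measured value, although the list was drawn up with earlier results of these data known. Of the 41, 38 are listed under the name used here, and Il36a, Il36g and Il36rn were found under their older names Il1f6, Il1f9 and Il1f5. The table covers primary KCs from the tails of adult 129/sv mice in 4 libraries of polyadenylated RNA, 2 from wild-type (WT) littermates and 2 from Nfat5-/- mice. The Nfat5-/- mice lack NFAT5, a transcription factor that answers osmotic stress, in the whole body, and the study notes small size, kidney atrophy and constantly high blood sodium for its 129sv mice. All 4 cultures were untreated and grew in serum-free medium with 0.06 mM calcium, and the tails of both genotypes had travelled overnight on ice before the cells were prepared. In this medium the study saw basal KCs form a layer within days, but also cornification-like envelopes after prolonged culture. How long these 4 cultures grew is not given here. Each library is 1 labelled replicate. The study calls the WT and Nfat5-/- mice siblings, but which library came from which litter or preparation is not stated, so the p-values below measure only the spread between these samples.

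The IL-1 family begins many skin reactions. IL-1 alpha (Il1a) lies ready in KCs and is set free when they are damaged, the IL-36 cytokines act through a related receptor, and the antagonists encoded by Il1rn and Il36rn block these 2 pathways at the receptor. Cytokines such as TNF and IL-1 act through the transcription factor NF-kB, which in turn drives the genes of CXC chemokines that attract neutrophils (Cxcl1, Cxcl2, Cxcl5). TSLP is an epithelial cytokine that promotes type 2 responses, and CSF proteins (Csf1, Csf2, Csf3) act on macrophages and granulocytes.

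Library depth ranged from 16219445 to 23494436 gene reads, and 3 reads, the smallest count taken as a level here, equal 0.128 to 0.185 CPM (reads scaled to library size). Between replicates of a genotype the counts differed beyond sampling noise (chi-square over degrees of freedom, 13.3 for WT and 13.8 for Nfat5-/-). Reads of the Nfat5 gene itself did not separate the labels, since WT had 408 and 929 and the libraries labelled Nfat5-/- had 715 and 770, so the groups are called by their labels only. These are reads of the whole gene, and whether the null allele removes only some exons is not stated in the sources used here, so the counts do not check the genotype. The basal KC markers Krt5 and Krt14 lay between 4990 and 6985 RPKM (reads per length of exon, corrected for library depth). Among markers of other cells or states, 3 of 9 genes of differentiated KCs and 4 of 4 tested genes of smooth muscle stood higher in Nfat5-/- and 1 of 4 tested melanocyte genes was lower (edgeR, adjusted p under 0.05, which 0.943% of all tested genes passed higher and 0.325% lower). None of 8 tested leukocyte genes and none of 2 tested fibroblast genes passed that threshold, while 2 and 0 of them had an unadjusted p under 0.05 (14.6% of all tested genes) and limma-trend on log2(RPKM + 1) called the leukocyte gene H2-Aa. One of the 8, Cpa3, had reads in introns only and 0 RPKM in every library, so its test says nothing of its mRNA.

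Most of these genes were expressed. A level of at least 1 RPKM in 2 or more libraries was reached by 31 of the 41, where 39.7% of all listed genes reached it. Of the 31, 4 had a mean over the 4 libraries of 100 RPKM or more, 10 lay between 10 and 100 RPKM, and 17 lay below 10 RPKM. The 10 others were the ligands Il1b, Il6, Il15, Cxcl10, Ccl5 and Ccl20 and the receptors Il1r2, Il1rl1, Il6ra and Il20rb. The highest level of any of these 10 in any library was 1.61 RPKM, for Ccl5 in WT 2. Il6, the best known gp130 ligand, had between 0 and 2 reads in every library, which lies at or under the 3-read limit. Il1b, which encodes the inducible agonist IL-1 beta, had 3 to 12 reads, and Il15, a lymphocyte growth factor, 1 to 7. Ccl5, a T cell chemokine, had 0 to 19 reads. Cxcl10, an interferon-induced chemokine, had 4 to 22 reads, of which 13.3% of those in exons had a single site, and it overlaps Art3. These 4 ligands and Il6 and Il1r2 were not tested.

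**Figure D1:**
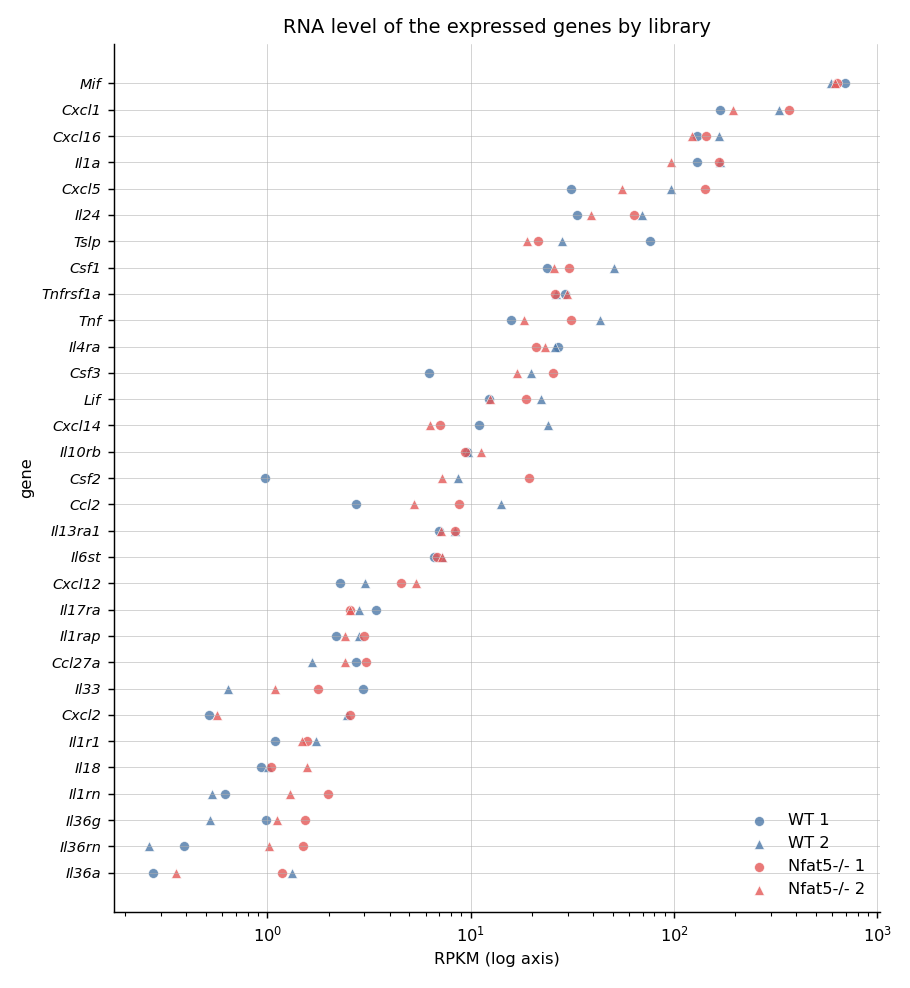
RNA level of the 31 expressed genes in each library on a log axis of RPKM, ordered by the mean of the 4 libraries. Blue marks WT and red Nfat5-/-, circles replicate 1 and triangles replicate 2. Mif stands highest at 594 to 691 RPKM, and the symbols of both genotypes are mixed in most rows.

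Highest of all was Mif, which encodes macrophage migration inhibitory factor, on chromosome 10 (75859353 to 75860240, GRCm38, minus strand). It was measured at 691 and 594 RPKM (WT) against 633 and 622 RPKM (Nfat5-/-). The genotypes overlapped, and the log2 fold change, Nfat5-/- over WT, was -0.01 (standard error, SE, 0.11). Of the Mif exon reads, 97.1% were placed at a single site.

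Cxcl1, a neutrophil chemokine (chromosome 5, 90891241 to 90893115), followed with 168 and 329 RPKM (WT) against 368 and 195 RPKM (Nfat5-/-). Cxcl16, whose product exists as a membrane-bound and a shed chemokine, had 130 and 166 RPKM (WT) against 144 and 123 RPKM (Nfat5-/-). Il1a had 129 and 168 RPKM (WT) against 167 and 97.0 RPKM (Nfat5-/-). In all 3 genes each genotype held a high and a low library, and the ranges overlapped. Of the Cxcl16 exon reads, 68.9% were placed at a single site, and the gene overlaps Zmynd15.

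Cxcl5, another neutrophil chemokine, was measured at 31.2 and 96.9 RPKM (WT) against 142 and 55.4 RPKM (Nfat5-/-). Il24, an IL-20 family cytokine, had 33.4 and 69.2 RPKM (WT) against 63.9 and 38.8 RPKM (Nfat5-/-). Csf1, the growth factor of macrophages and Langerhans cells, had 23.8 and 50.4 RPKM (WT) against 30.5 and 25.6 RPKM (Nfat5-/-). These ranges overlapped too. TNF, the classical alarm cytokine, is encoded by Tnf, which had 15.7 and 43.3 RPKM (WT) against 31.1 and 18.3 RPKM (Nfat5-/-). Its receptor gene Tnfrsf1a was far steadier, at 29.0 and 26.2 RPKM (WT) against 26.1 and 29.8 RPKM (Nfat5-/-).

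To see how far the RNA depends on genotype, the 4 libraries were compared with edgeR's quasi-likelihood test on the gene reads, with p-values adjusted over all 12614 genes tested. Of the 41 genes, 35 had enough reads to be tested and 0 passed an adjusted p of 0.05, where 1.27% of all tested genes did (0.943% higher and 0.325% lower in Nfat5-/-). An unadjusted p under 0.05 was reached by 6 of the 35 (14.6% of all tested genes), namely Il36g, Il1rn, Il36rn and Cxcl12 with higher and Tslp and Cxcl14 with lower levels in Nfat5-/-. DESeq2 on the same reads called 4 of the 35 at an adjusted p under 0.05 (3.38% of all tested genes), namely Il36rn, Il1rn, Cxcl12 and Cxcl14, and limma-trend called 0, where it called 1.57% of all genes on log2(RPKM + 1) and 1.37% on log2(RPKM + 0.1). Over the 35 genes the median log2 fold change was 0.04, against -0.01 over all tested genes. RNA from bulk cultures cannot tell fewer cells of a kind from less RNA per cell.

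The outcome near the threshold hung on single libraries. Leaving out WT 1 gave 3 of these genes past the threshold (Il36rn, Csf1 and Cxcl14, with 2.05% of all tested genes), leaving out WT 2 gave 4 (Cxcl12, Csf2, Csf3 and Tslp, with 3.7%), and leaving out Nfat5-/- 1 or Nfat5-/- 2 gave 0 (with 0.24% and 0.122%), all by edgeR with adjusted p. Levels of 10 of the 35 genes did not overlap between genotypes, compared with 46.5% of all tested genes.

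**Figure D2:**
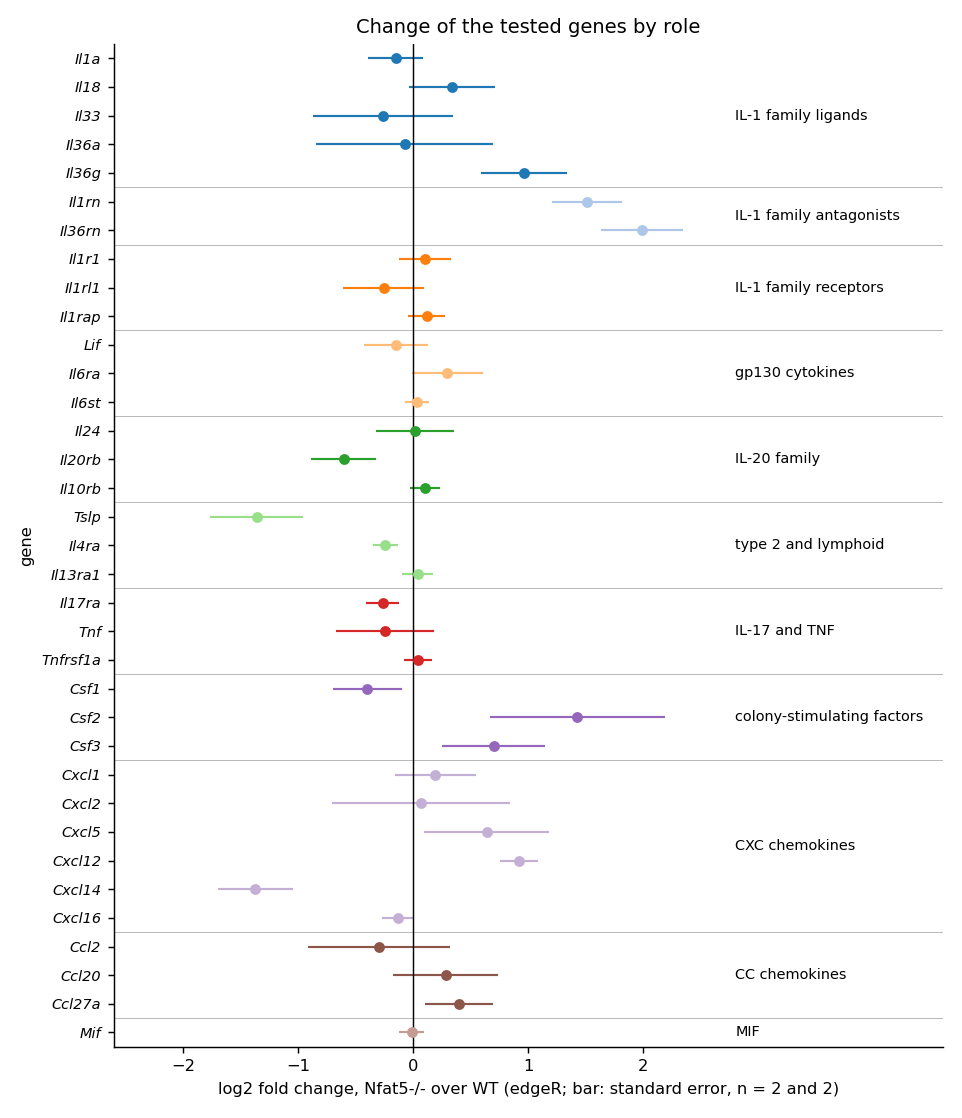
Change of the 35 tested genes, grouped by role, as log2 fold change of Nfat5-/- over WT from edgeR, with bars of 1 SE (2 libraries per genotype). Both antagonists lie to the right of 0, at 1.51 and 1.99, Tslp and Cxcl14 lie at -1.36 and -1.37, and Il1r1, Il6st, Il10rb, Il13ra1 and Tnfrsf1a lie at 0.04 to 0.10.

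By edgeR with all libraries, the 2 IL-1 family antagonists had the largest log2 fold changes of the 35 genes, while the ratio of change to SE was higher for Cxcl12 than for Il1rn. With limma-trend at either pseudocount, and by edgeR without WT 2, the log2 fold change of Csf2 was larger than both. Il36rn, which blocks the IL-36 receptor, lies on chromosome 2 (24276954 to 24283426, plus strand). It had 0.388 and 0.261 RPKM (WT) against 1.49 and 1.01 RPKM (Nfat5-/-), from 19, 17, 106 and 57 reads in that order. Both Nfat5-/- libraries lay above both WT libraries. The log2 fold change, 1.99 (SE 0.35), had an edgeR adjusted p of 0.0510, and Il36rn passed 0.05 in 8 of 14 alternatives (adjusted p from 5.24e-07 to 0.216).

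Il1rn, which encodes the IL-1 receptor antagonist, lies in the same gene cluster (chromosome 2, 24336853 to 24351494, plus strand). Its level was 0.622 and 0.534 RPKM (WT) against 1.99 and 1.30 RPKM (Nfat5-/-). Again the genotypes did not overlap. Its log2 fold change of 1.51 (SE 0.30) had an edgeR adjusted p of 0.0714, and it passed 0.05 in 2 of 14 alternatives (2.64e-05 without the filter on low counts and 0.0300 with DESeq2, at most 0.263). Both antagonists are listed at low levels, so the difference rests on 17 to 33 reads per WT library.

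Among the ligands they oppose, Il36g (chromosome 2, 24186476 to 24193568) had 0.985 and 0.521 RPKM (WT) against 1.54 and 1.11 RPKM (Nfat5-/-). The libraries of the genotypes did not overlap, and edgeR gave a log2 fold change of 0.97 (SE 0.37, adjusted p 0.304), which was 0.59 without WT 2. The neighbouring Il36a had 0.272 and 1.33 RPKM (WT) against 1.18 and 0.356 RPKM (Nfat5-/-), and there the genotypes overlapped. The alarmin genes Il18 and Il33, which are not among these opposed ligands, had log2 fold changes of 0.34 (SE 0.37) and -0.26 (SE 0.61). Il1a, the ligand with the most RNA, had a log2 fold change of -0.15 (SE 0.24).

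Agonist and antagonist RNA were also set side by side within each library. The ratio of Il1a to Il1rn RPKM was 207 and 314 in WT and 83.8 and 74.8 in Nfat5-/-. For Il36g to Il36rn the RPKM ratio was 2.54 and 2.00 in WT and 1.03 and 1.10 in Nfat5-/-. Both ratios were lower in each Nfat5-/- library than in each WT library, which restates the antagonist levels above on another scale. In all 4 libraries Il1a RNA exceeded Il1rn RNA.

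**Figure D3:**
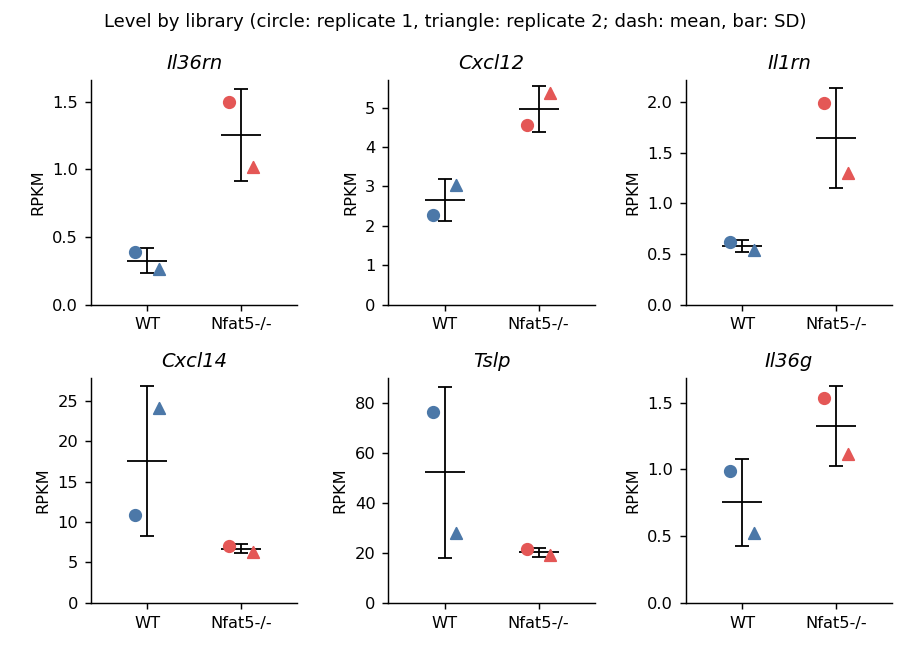
Level in RPKM of the 6 genes with an unadjusted edgeR p under 0.05, by genotype, on axes that start at 0. Circles are replicate 1 and triangles replicate 2, the dash is the mean and the bar the SD (n = 2). The genotypes do not overlap in any of the 6 panels, and the WT libraries of Cxcl14 and Tslp lie far apart.

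No receptor gene of the set passed the threshold, and most lay close to 0. Il1r1, the signalling IL-1 receptor, had a log2 fold change of 0.10 (SE 0.23), its partner chain Il1rap 0.12 (SE 0.16), and Il1rl1, the IL-33 receptor, -0.25 (SE 0.35). Il1r2, a decoy receptor, had 0 reads in both WT libraries and 2 and 3 reads in Nfat5-/-, within the 3-read limit, and no fold is given. Il6st, the shared gp130 chain, had 0.04 (SE 0.11), and Il6ra 0.30 (SE 0.31). Il10rb had 0.10 (SE 0.13), Il13ra1 0.04 (SE 0.14) and Tnfrsf1a 0.04 (SE 0.12). Of the Il10rb exon reads, 66.3% were placed at a single site, and the gene overlaps Gm21970. Lower values in both Nfat5-/- libraries were seen for Il4ra, at -0.24 (SE 0.11), for Il17ra, at -0.26 (SE 0.14), and for the low Il20rb, at -0.60 (SE 0.28). Of the 46, 57, 44 and 31 reads of Il20rb, 17, 13, 7 and 4 lay in introns, and its RPKM, which counts exon reads, had a ratio of 0.791. None of these 3 had an unadjusted p under 0.05. A miss of the threshold does not show that levels were equal.

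Tslp, on chromosome 18, had 76.4 and 28.0 RPKM (WT) against 21.4 and 19.0 RPKM (Nfat5-/-). The genotypes did not overlap, but the WT libraries differed from each other by more than the lower of them differed from the Nfat5-/- libraries. Its log2 fold change of -1.36 (SE 0.41) had an edgeR adjusted p of 0.190. Without WT 1 it was -0.45, and without WT 2 it was -1.92 and past the threshold. The size of the difference therefore depended on the first WT library.

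Cxcl14, a chemokine made by normal epithelium, lies on chromosome 13 (56288643 to 56296551, minus strand). It was measured at 10.9 and 24.0 RPKM (WT) against 7.09 and 6.31 RPKM (Nfat5-/-). The Nfat5-/- libraries were close together and below both WT libraries, and edgeR gave a log2 fold change of -1.37 (SE 0.32, adjusted p 0.108). Here the second WT library was the high one, so the high libraries of Tslp and Cxcl14 were not the same. Without WT 2 the log2 fold change of Cxcl14 was -0.70, and without WT 1 it was -1.81.

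Cxcl12, the ligand of CXCR4, lies on chromosome 6 (117168535 to 117181367, plus strand). It had 2.27 and 3.03 RPKM (WT) against 4.56 and 5.37 RPKM (Nfat5-/-), from 273, 480, 790 and 735 reads. Both Nfat5-/- libraries lay above both WT libraries, and the replicates were close. Its log2 fold change of 0.92 (SE 0.17) had an edgeR adjusted p of 0.0562, and Cxcl12 passed 0.05 in 8 of 14 alternatives (adjusted p from 5.97e-08 to 0.349). Cxcl12 is a product of mesenchymal cells in many tissues, and 4 of 4 tested smooth muscle markers were higher too, with a summed level of 184 and 151 RPKM (WT) against 518 and 819 RPKM (Nfat5-/-). Acta2 had 164 and 134 RPKM (WT) against 450 and 723 RPKM (Nfat5-/-), and Des had 0 or 1 read per library. Of the 6 fibroblast markers, 2 were tested, Pdgfra with 19, 14, 38 and 26 reads (log2 fold change 0.78, SE 0.41) and Col1a1 with 41, 34, 44 and 91 reads (0.74, SE 0.49), in the library order WT 1, WT 2, Nfat5-/- 1 and Nfat5-/- 2. The other 4 (Col1a2, Col3a1, Dcn and Lum) had 0 to 6 reads in each library, and the summed fibroblast level was 0.542 and 0.409 RPKM (WT) against 0.484 and 1.13 RPKM (Nfat5-/-). The part of these cells in the Cxcl12 level was not tested.

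Of the 9 markers of differentiated KCs, 8 had higher RPKM in both Nfat5-/- libraries, where 46.5% of all tested genes did not overlap in either direction. Il1rn, Il36rn and Il36g were higher in both Nfat5-/- libraries too, although none of these 3 passed the adjusted threshold. Of the 9 markers 6 had an unadjusted p under 0.05 (14.6% of all tested genes), all higher in Nfat5-/- (median log2 fold change over the 9, 1.58), and their summed level was 91.0 and 62.3 RPKM (WT) against 199 and 280 RPKM (Nfat5-/-). Sprr1a, Sprr1b and Krtdap passed the adjusted threshold, while Krt10, at the centre of early differentiation, had 0.854 and 0.684 RPKM (WT) against 0.550 and 0.520 RPKM (Nfat5-/-). Flg had a log2 fold change of 0.06 (SE 0.10) on reads that lay mostly in introns (626 of 650 in WT 1, 617 of 776 in Nfat5-/- 2), and its RPKM, at 0.201 and 0.277 (WT) against 0.446 and 1.16 (Nfat5-/-), did not overlap. Within genotypes, Il1rn, Il36rn and Il36g were higher in replicate 1 of both, and so were 3 of the 9 markers, Tgm1 (3.67 and 1.93 RPKM in WT, 10.7 and 5.996 in Nfat5-/-), Ivl and Krt10. The sum, most of it from Sprr1a and Sprr1b, was higher in Nfat5-/- 2. The part of differentiation in these 3 levels was not tested.

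No other ligand had an unadjusted p under 0.05. Their log2 fold changes were 0.19 (SE 0.35) for Cxcl1, 0.64 (SE 0.55) for Cxcl5 and -0.13 (SE 0.14) for Cxcl16. For Tnf, Lif and Il24 they were -0.24 (SE 0.43), -0.15 (SE 0.28) and 0.02 (SE 0.34). Csf1 lay at -0.40 (SE 0.30) and Csf3 at 0.70 (SE 0.44), which was 0.13 without WT 1 and 1.76 without WT 2. The CC chemokines Ccl2, Ccl20, which attracts cells bearing CCR6, and Ccl27a, which attracts skin T cells, lay at -0.30 (SE 0.62), 0.28 (SE 0.46) and 0.40 (SE 0.30). Of the Ccl27a exon reads, 29.8% had a single site, and Ccl27a overlaps Il11ra1.

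A 2-fold ratio of the group means of RPKM, without overlap and with a higher group mean of 1 RPKM or more, was met by 4 of the 31 expressed genes, compared with 2.55% of all expressed genes. These were Il36rn (ratio 3.87), Il1rn (2.85), Tslp (0.387) and Cxcl14 (0.383). Cxcl12, with a ratio of 1.88, lay just under this limit, and Csf2, with a ratio of 2.77, was kept out because its libraries overlapped. With at least 2 RPKM asked of the higher group, 2 genes were left, Tslp and Cxcl14. Il36rn and Il1rn reached 1 RPKM only in Nfat5-/-, the group in which they were high, so they entered the expressed genes through the same difference that the ratio counts, and the count of 4 is a description only.

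Several ligands varied more within genotypes than between them. Csf2, which encodes GM-CSF, had 0.977 and 8.64 RPKM (WT) against 19.4 and 7.20 RPKM (Nfat5-/-). Its log2 fold change of 1.43 (SE 0.76) had an adjusted p of 0.446 by edgeR, and with 1 library left out it ran from 0.59 (without Nfat5-/- 1) to 3.79 (without WT 2). Cxcl2 had 0.518 and 2.45 RPKM (WT) against 2.55 and 0.564 RPKM (Nfat5-/-), so each genotype held 1 library over 4-fold above the other. Its log2 fold change of 0.07 (SE 0.77) came with the largest SE of all 35 genes.

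Many of the variable genes shared 1 order of libraries, in which WT 2 exceeded WT 1 and Nfat5-/- 1 exceeded Nfat5-/- 2. With at least 1.5-fold in both steps, this order was found for 8 of the 35 tested genes, namely Il36a, Il24, Tnf, Csf2, Cxcl1, Cxcl2, Cxcl5 and Ccl2, compared with 0.991% of all tested genes. The reverse order, at the same fold, was found for 0 of the 35 and for 1.29% of all tested genes. This order was noticed in the data and is a description without a test. At 1.2-fold the set grew to 12 genes (3.73% of all tested genes), adding Il1a, Il1rap, Lif and Csf3, and at 2-fold it held 4 (0.285% of all tested genes), Il36a, Csf2, Cxcl2 and Cxcl5.

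**Figure D4:**
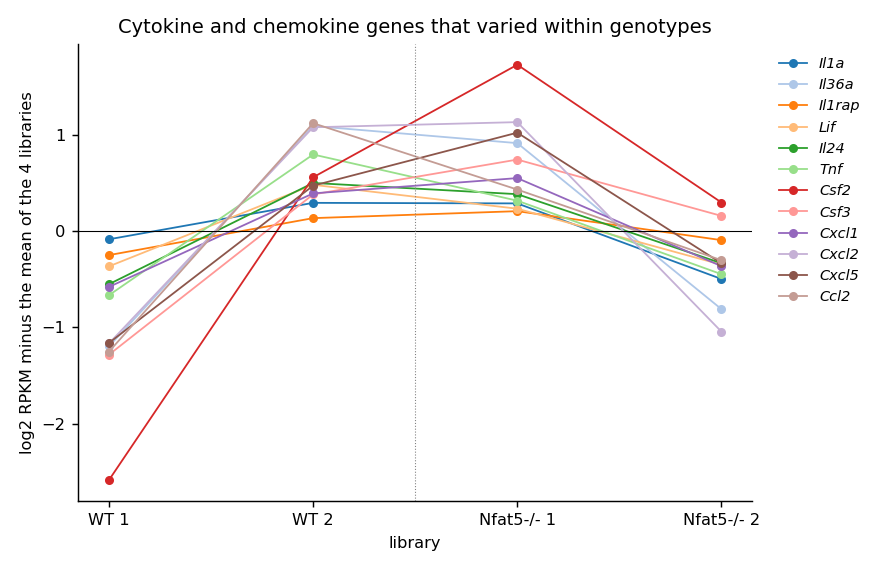
Level of 12 cytokine, chemokine and receptor genes in each library, as log2 RPKM minus the gene's mean over the 4 libraries, for the genes at least 1.2-fold higher in WT 2 than WT 1 and in Nfat5-/- 1 than Nfat5-/- 2. The genes were picked for this order, so the shared shape is fixed by the choice, and the plot shows its size, largest for Csf2.

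The factor was 1.96 between the WT libraries and 1.88 between the Nfat5-/- libraries for Cxcl1, 3.10 and 2.56 for Cxcl5, and 2.75 and 1.70 for Tnf. For Ccl2, which attracts monocytes, it was 5.17 and 1.66, although only 22.9% of the Ccl2 exon reads had a single site and the gene overlaps Gm17268. Lif, a gp130 cytokine, was steadier, at 12.4 and 22.2 RPKM (WT) against 18.7 and 12.5 RPKM (Nfat5-/-). Csf3, the granulocyte growth factor, had 6.21 and 19.7 RPKM (WT) against 25.3 and 16.9 RPKM (Nfat5-/-). Il33 had another order, with 2.94 and 0.641 RPKM (WT) against 1.77 and 1.09 RPKM (Nfat5-/-).

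Depth moved with this order. WT 2 and Nfat5-/- 1 were the deeper library of their genotype, at 21612980 against 16219445 and 23494436 against 18645422 gene reads, while RPKM is scaled to depth. Of the 13 leukocyte markers that were found, 2 had it at 1.5-fold in RPKM, Cd3g and Adgre1, where 0.991% of all tested genes had it. With no fold asked, 4 had it (also Ptprc and H2-Aa), where 29.3% of all tested genes had it, and 9 did not. Only 8 of the 13 were tested (not Ptprc or Cd3g), so the shares over tested genes come from an unlike set. Trdc and Cpa3 had 0 RPKM in every library and could not have the order. Ptprc, the pan-leukocyte gene, had 2 and 22 reads in WT and 10 and 5 in Nfat5-/-, Cd3g had 1 and 9 against 6 and 2, and Adgre1 had 9 and 19 against 14 and 8. The T cell gene Trdc and the Langerhans cell gene Cd207 had 0 or 1 read in every library. Over all 13 the summed level did not have this order, at 23.2 and 17.6 RPKM (WT) against 21.8 and 22.7 RPKM (Nfat5-/-), most of it from Cd68, and Csf1r had 24 and 55 reads in WT and 25 and 34 in Nfat5-/-. The part of leukocytes in the order was not tested.

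Because several of these genes lie in 1 cluster and share a way of control known from textbooks, the DNA before their start was read from RefSeq (GRCm38.p6). Up to 250 bases upstream of the start were available for 30 of the 41 genes, in 38 windows, and were searched on both strands for a form of the kappaB motif that NF-kB binds, spelled GGG, any 2 bases and TTTCC. It was found in 6 of the 38 windows, those of Ccl20, Csf1, Cxcl1, Cxcl2, Il1rn and Il6, and in 1.41% of all 32851 windows. Cxcl1 and Cxcl2 each held 2 matches. Of the 8 genes with the library order above, 4 had a window (Cxcl1, Cxcl2, Csf2 and Tnf), and those of Csf2 and Tnf held no match, while Ccl20, Csf1, Il1rn and Il6 had a match without being among the 8. The sequences are shown to the start of the gene as listed, plus strand, with the kappaB matches in capitals. Il6 is shown beside them because it had a match and at most 2 reads.
Cxcl1, chr5:90890995-90891240: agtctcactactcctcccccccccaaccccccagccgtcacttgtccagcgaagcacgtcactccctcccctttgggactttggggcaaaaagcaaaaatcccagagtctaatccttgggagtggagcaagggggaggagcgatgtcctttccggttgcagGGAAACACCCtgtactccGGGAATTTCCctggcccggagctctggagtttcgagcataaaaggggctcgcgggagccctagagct
Cxcl2, chr5:90903649-90903870: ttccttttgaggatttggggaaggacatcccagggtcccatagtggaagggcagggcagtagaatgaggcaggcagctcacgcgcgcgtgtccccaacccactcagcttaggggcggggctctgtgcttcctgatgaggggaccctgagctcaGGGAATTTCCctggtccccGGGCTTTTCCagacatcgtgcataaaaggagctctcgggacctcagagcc
Il6, chr5:30012864-30013113: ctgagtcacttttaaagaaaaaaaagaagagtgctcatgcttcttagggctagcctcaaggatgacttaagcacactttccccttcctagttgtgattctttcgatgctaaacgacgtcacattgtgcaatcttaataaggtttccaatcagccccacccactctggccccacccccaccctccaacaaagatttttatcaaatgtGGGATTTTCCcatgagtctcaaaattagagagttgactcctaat

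In Cxcl1 the matches began 89 and 71 bases before the RefSeq start, in Cxcl2 97 and 78 bases, and in Il6 44 bases. The letters GGGAATTTCC occurred in both chemokine genes. The match of Il1rn, 51 bases before the start, lay in the window of a start inside the gene, not in that of its outermost start. A match describes these letters and is neither a bound site nor a cause of a level.

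TGGAAA, the core that NFAT factors including NFAT5 recognise, was found in 8 of the 38 windows (those of Csf2, Cxcl10, Cxcl2, Il1b, Il1rn, Il6, Mif and Tnf) and in 18.6% of all windows. In Cxcl2 it overlapped a kappaB match. TGANTCA, the AP-1 motif, was found in 6 of the 38 windows (those of Ccl27a, Cxcl10, Il1a, Il1rn, Il6 and Lif) and in 6.75% of all windows. The upstream sequences of the 2 antagonist genes are shown, with the AP-1 match of Il1rn in capitals. These genes had the largest log2 fold changes by edgeR with all libraries. Il36rn held none of the 3 motifs. Both are read from the plus strand.
Il1rn, chr2:24336610-24336852: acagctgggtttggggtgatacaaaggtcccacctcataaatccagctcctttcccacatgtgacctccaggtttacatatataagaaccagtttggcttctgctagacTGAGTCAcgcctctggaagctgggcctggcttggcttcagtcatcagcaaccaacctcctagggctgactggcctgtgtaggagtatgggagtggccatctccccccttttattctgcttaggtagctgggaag
Il36rn, chr2:24276704-24276953: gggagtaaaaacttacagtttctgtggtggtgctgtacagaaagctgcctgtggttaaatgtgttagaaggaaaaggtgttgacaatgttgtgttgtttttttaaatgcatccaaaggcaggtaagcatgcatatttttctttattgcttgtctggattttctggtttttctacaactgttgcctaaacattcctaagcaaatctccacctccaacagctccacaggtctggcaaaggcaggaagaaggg

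Gene order put several of these results side by side. The IL-1 and IL-36 ligand cluster on chromosome 2 (24153161 to 24351494) holds 6 protein-coding genes, of which 4 were tested. Il36g, Il36rn and Il1rn had higher levels in both Nfat5-/- libraries, and Il36a, which lies between Il36g and Il36rn, did not. The IL-1 receptor cluster on chromosome 1 (40074079 to 40551705) also holds 6 protein-coding genes, of which 5 were tested. Il1r1, Il1rl2 (the IL-36 receptor) and Il1rl1 had log2 fold changes of 0.10, -0.22 and -0.25. Il18r1 and Il18rap at the end of that cluster, which together form the IL-18 receptor, had -1.31 (SE 0.20) and -1.40 (SE 0.53). The Il18rap difference rested on WT 2, since its level was 1.25 and 4.95 RPKM (WT) against 1.197 and 1.22 RPKM (Nfat5-/-).

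The CXC chemokine cluster on chromosome 5 (90759360 to 90905938) holds 7 protein-coding genes, of which 5 were tested. Cxcl3 had 24.5 and 61.1 RPKM (WT) against 69.8 and 22.1 RPKM (Nfat5-/-), the library order of Cxcl1, Cxcl2 and Cxcl5. Ppbp, whose product is a further neutrophil chemokine, had 195 and 204 RPKM (WT) against 325 and 230 RPKM (Nfat5-/-), with both Nfat5-/- libraries above WT (log2 fold change 0.49, SE 0.15, adjusted p of edgeR 0.214).

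**Figure D5:**
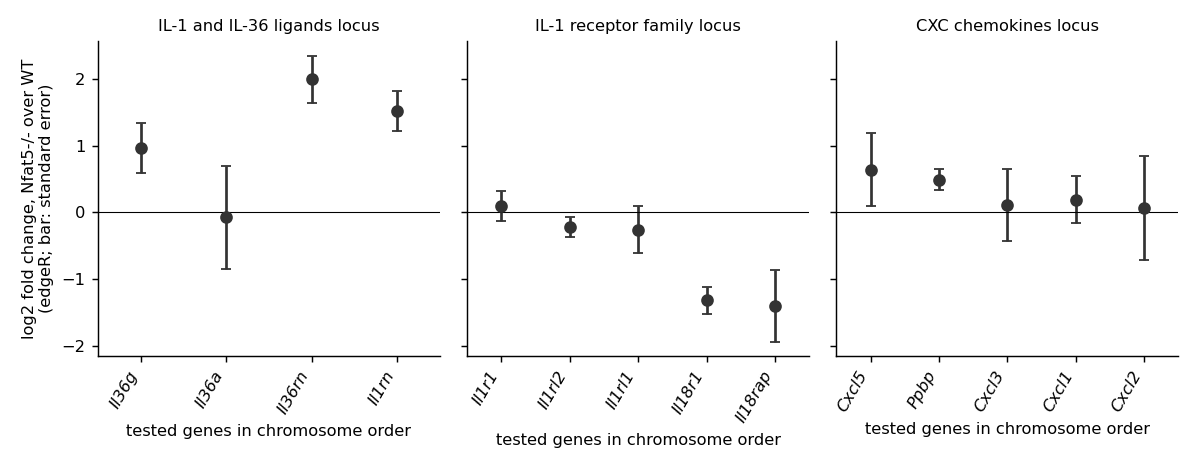
Log2 fold change of Nfat5-/- over WT (edgeR, bar 1 SE) for the tested genes of 3 clusters in chromosome order. In the ligand cluster Il36rn and Il1rn lie at 1.99 and 1.51, in the receptor cluster Il18r1 and Il18rap lie below -1, and in the chemokine cluster the SE of Cxcl2 reaches 0.77.

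Other genes of the same pathways were read from 5 lists, of which 86 genes were tested. Of these, 2 passed an adjusted p of 0.05 by edgeR (1.27% of all tested genes), 1 in each direction, and 16 had an unadjusted p under 0.05 (14.6% of all tested genes). Il18r1, a chain of the IL-18 receptor, was lower in Nfat5-/-, with 6.31 and 9.63 RPKM (WT) against 3.18 and 3.20 RPKM (Nfat5-/-) (log2 fold change -1.31, SE 0.20, edgeR adjusted p 0.0351). Gsdma, a pore-forming gasdermin of the skin that can release IL-1, was higher, with 0.287 and 0.381 RPKM (WT) against 1.49 and 2.21 RPKM (Nfat5-/-) (log2 fold change 2.43, SE 0.33, edgeR adjusted p 0.0251). Both were called by DESeq2 and limma-trend too, and neither when an Nfat5-/- library was left out.

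By list, 1 of 19 tested further receptors (Il18r1) and 1 of 8 tested genes of IL-1 processing and the inflammasome (Gsdma) passed. None of 10 further cytokines and chemokines, none of 30 genes of the NF-kB pathway and none of 19 of the JAK-STAT pathway did so by edgeR, DESeq2 or limma-trend, and 3, 1 and 6 of them had an unadjusted edgeR p under 0.05, which 14.6% of all tested genes had. In the NF-kB pathway the smallest p was that of Irak2, a kinase below the IL-1 receptor, at 0.56 on the log2 scale (SE 0.15, edgeR adjusted p 0.141), followed by the kinase Irak1 at -0.23 (SE 0.10) and the deubiquitinase Cyld at -0.22 (SE 0.11). In the JAK-STAT pathway Socs2, a feedback inhibitor, had -0.62 (SE 0.16) and Stat3 had 0.37 (SE 0.11), with adjusted p of 0.136 and 0.202 by edgeR, and Socs3 had -0.40 (SE 0.15). Il23a, a subunit of IL-23, had 6.63 and 11.0 RPKM (WT) against 16.0 and 11.5 RPKM (Nfat5-/-) and a log2 fold change of 0.65 (SE 0.26), while Ccl9, under 1 RPKM throughout, had 1.18 (SE 0.47). Il16 had -0.55 (SE 0.19), but 378, 364, 337 and 234 of its 380, 366, 341 and 236 reads lay in introns, so that this value does not describe its mRNA. The same holds for Il31ra, counted among the tested receptors, whose reads lay in introns but for 1. Il11ra1, which overlaps Ccl27a, had -0.40 (SE 0.15), and the inflammasome genes Nlrp10 and Pycard had -0.52 (SE 0.13) and -0.52 (SE 0.38). The median log2 fold change over the 30 NF-kB pathway genes was 0.02, near that of all tested genes.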

How the data were processed

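Polyadenylated RNA of 2 WT and 2 Nfat5-/- KC cultures had been sequenced, and the authors trimmed the reads, aligned them to GRCm38 with the CLC Genomics Workbench at default settings, and deposited per-library tables of read counts (total gene, exon and intron reads, also uniquely placed) and RPKM, written with decimal commas. The deposited RPKM equalled exon reads divided by exon length and a constant per library. No source states strand-aware counting, which leaves overlapping and antisense genes uncertain. Groups and replicate numbers came from the sample titles.

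Total gene read counts were tested with edgeR 4.0.16 (filterByExpr, TMM, quasi-likelihood, genotype as sole term, two-sided) in R 4.3.3, adjusted by Benjamini-Hochberg over 12614 genes. SE was taken as change over root F. The procedure was tested on simulated data. Alternatives used DESeq2 1.42.0, limma 3.58.1, other filters, scalings and read classes, a replicate block, and each library left out.

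The genes, their groups and the pathway and marker lists were chosen with earlier results of these data known. Values in every library are given for genes with an unadjusted p under 0.05, the 10 highest by mean RPKM and those with a 2-fold RPKM ratio. Other genes named with values were chosen after their values were seen. Itgam, a leukocyte marker, was not analysed here.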

Additional observations from a re-analysis of the deposited data

How the results depend on the processing

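The number of the 41 genes past an adjusted p of 0.05, which was 0 with edgeR, moved in 10 of 14 alternatives. It was 9 without the filter on low counts (6.3% of all genes, 1137 in number), 4 with DESeq2 (3.38%, 426 genes), 2 with 10 or more counts asked of each library (1.34%), with RLE factors (1.41%), with library totals (1.7%) and with uniquely placed exon reads (1.87%), each time Il36rn and Cxcl12, and 1 with exon reads (Il36rn, 1.44%). It was 0 with limma-trend at either pseudocount. Leaving out each library in turn gave 0 to 4 of these genes, 16 to 478 of all genes, 0 to 7 pathway genes (0 without either Nfat5-/- library, 7 without WT 2) and 2 to 8 marker genes (3 without Nfat5-/- 1, 2 without Nfat5-/- 2), where the lone library left in a genotype is assumed to vary like the pair of the other. Without the filter, 8 pathway genes and 16 markers passed. The order shared by 8 genes was noticed in the data, and its other folds, with 12 and 4 genes, were chosen after seeing them. The 2-fold RPKM rule held 2 genes with a mean of at least 2 RPKM.

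Over the tested genes, the deviations of same-numbered libraries from their genotype mean had a correlation of -0.0652. With so few libraries this cannot decide whether same-numbered libraries shared a litter or preparation. A replicate block gave 1 of these genes past the threshold (Cxcl12), 132 of all genes, 2 pathway genes and 8 markers.

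Il36g, Il1rn, Il36rn, Tslp, Cxcl12 and Cxcl14 kept their direction in all 14 alternatives. Limma-trend on log2(RPKM + 1), which understates low genes, gave 0.76 for Il36rn, 0.73 for Il1rn and 0.41 for Il36g, and at a pseudocount of 0.1 it gave 1.67, 1.34 and 0.78. Of 20 genes followed, 12 changed sign in at least 1, in 24 of 280 fits. Apart from single libraries left out, these were Il24 with library totals (-0.00096) and Ccl2 with limma-trend (0.0586 and 0.120) and the block (0.0020). With 1 library left out, log2 fold changes ran from -0.12 to 0.11 for Mif, -0.31 to 0.76 for Cxcl1, -0.29 to 0.0482 for Cxcl16, -0.58 to 0.17 for Il1a, -0.16 to 1.68 for Cxcl5, -0.40 to 0.64 for Il24, -0.83 to 0.24 for Csf1, -0.0749 to 0.150 for Tnfrsf1a, -0.78 to 0.67 for Tnf, -0.49 to 0.33 for Lif, -1.39 to 1.63 for Cxcl2 and -1.004 to 1.36 for Ccl2. Without a change of sign they ran from 0.59 to 3.79 for Csf2, 0.13 to 1.76 for Csf3, 0.59 to 1.41 for Il36g, -1.92 to -0.45 for Tslp and -1.81 to -0.70 for Cxcl14. The cause was not tested. Counting intervals and the 3-read limit cover counting error only, since the reads carry no molecular identifiers, and 6 of the 35 genes had an SE over 0.5.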
